A study of Mus musculus with 13 samples.

Results

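The subject is a set of 9 genes that mark astrocytes in brain tissue: Gfap, S100b, Aldh1l1, Aqp4, Gja1, Slc1a2, Glul, Apoe and Clu. They were chosen by name, and their regions were then found by rule in a table of chromatin immunoprecipitation sequencing (ChIP-seq) values from mouse neural stem and progenitor cells. The rule took the gene body with the gene's Entrez identifier, any CpG island holding the transcription start site (TSS), and every element of the classes the table calls Enh and IS that overlapped the gene body or the 5 kb upstream of it. It found 9 of 20689 gene bodies, 2 of 13263 CpG islands in the class near a TSS, and 32 of 100723 Enh and IS elements. All coordinates are mm10, and a region's position is given in bases from the gene's TSS in the table.

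The cells were isolated from cortex and ganglionic eminences from E14.5 embryos and grown as floating colonies, called neurospheres, to passage 5, day 3. Per the labels, Kat7-deleted cells (Kat7lox/loxNesCreT/+) gave 1 library with the antibody to KAT7 and 3 with the antibody to histone H3 acetylated at lysine 14 (H3K14ac). Kat7-intact cells (Kat7+/+NesCreT/+) gave 3 KAT7 and 4 H3K14ac libraries, and each experiment had 1 IgG library. Both genotypes carried the Cre transgene, which nestin regulatory sequence drives in neural progenitors, so the deletion depends on that transgene's activity. The table holds 1 merged column per antibody, whose RPKM implies 134111848 reads in all for KAT7 and 141734087 for H3K14ac. Which libraries and which genotype entered each column is not given in the sources used here. No genotype comparison and no comparison with IgG was therefore made, and there are no replicates behind any value. Levels are RPKM, the deposited reads per kilobase of region, scaled to the column's total. Values in parentheses are exact 95% intervals that cover counting error alone, and reads are not independent molecules. KAT7 to H3K14ac ratios compare scaled reads, since the antibodies share no common scale.

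KAT7, also called HBO1, is a histone acetyltransferase whose products include H3K14ac, a mark found at active promoters. Astrocytes supply neurons with metabolites, clear glutamate and potassium, and are coupled to one another and to blood vessels. In the forebrain they are made by the same progenitors that earlier make neurons, and genes such as Gfap are switched on late in that sequence, with loss of DNA methylation and input from STAT3, NFI and SOX9 proteins. Neural progenitors in culture share some astroglial genes and lack others.

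The table marks each gene as Top, Bottom or Other in expression, and all 9 members were marked Other. The share of all genes with each mark was not computed, so whether this count is unusual cannot be told. Of the markers of progenitors, Nes, Sox2, Vim and Fabp7 were marked Top and Pax6 was marked Other. The Nes island at the TSS had 1.69 RPKM of KAT7 and 1.52 RPKM of H3K14ac, and the Sox2 island had 0.776 and 0.631 RPKM. These are above the median of islands that hold a TSS, which was 0.487 for KAT7 and 0.458 for H3K14ac.

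A CpG island held the TSS at Glul and Slc1a2 and at none of the other members in this table, 22.2% of 9 genes against 49.7% of 19903 autosomal genes. The bases just upstream of the start are shown for 4 members whose RefSeq promoter entry (GRCm38.p6) starts within 20 bases of the table's TSS. Aqp4 was left out of the search for such entries. The sequences show the difference between a start inside an island (Glul) and starts outside one (Gja1, S100b, Gfap). Each is the 250 bases before the RefSeq start, 5′ to 3′ on the gene's strand, with CpG dinucleotides in capitals.
Glul, chr1:153899679-153899928, plus strand: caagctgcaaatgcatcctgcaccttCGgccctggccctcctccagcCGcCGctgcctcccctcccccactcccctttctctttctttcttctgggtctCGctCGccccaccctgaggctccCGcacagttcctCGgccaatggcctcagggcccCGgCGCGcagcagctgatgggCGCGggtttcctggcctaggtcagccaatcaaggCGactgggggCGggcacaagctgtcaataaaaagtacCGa
Gja1, chr10:56377050-56377299, plus strand: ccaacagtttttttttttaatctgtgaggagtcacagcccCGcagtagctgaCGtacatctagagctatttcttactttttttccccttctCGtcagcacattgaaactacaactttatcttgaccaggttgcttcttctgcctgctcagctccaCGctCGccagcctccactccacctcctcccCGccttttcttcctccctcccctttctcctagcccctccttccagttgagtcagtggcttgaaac
S100b, chr10:76253586-76253835, plus strand: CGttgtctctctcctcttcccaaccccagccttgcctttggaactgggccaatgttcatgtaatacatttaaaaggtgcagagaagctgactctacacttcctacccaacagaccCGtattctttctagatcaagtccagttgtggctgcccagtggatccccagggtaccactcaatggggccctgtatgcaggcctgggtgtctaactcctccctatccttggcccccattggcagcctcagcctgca
Gfap, chr11:102897201-102897450, minus strand: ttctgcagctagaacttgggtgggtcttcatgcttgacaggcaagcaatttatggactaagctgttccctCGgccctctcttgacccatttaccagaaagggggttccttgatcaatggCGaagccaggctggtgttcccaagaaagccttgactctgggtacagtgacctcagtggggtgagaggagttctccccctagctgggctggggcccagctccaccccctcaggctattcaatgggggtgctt

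Glul held 15 CpG dinucleotides in this window and a G and C content of 64.8%, Gja1 held 6 with 50%, S100b 2 with 53.6% and Gfap 2 with 55.6%. Over 32851 RefSeq windows of the same length the median was 6, with quartiles of 2 and 16. Gfap and S100b thus had a CpG number at the lower quartile and Glul one just under the upper quartile. The letters of 7 motifs were searched on both strands. An AP-1 motif, TGANTCA, was found once, in Gja1, beginning 19 bases before the start, and 6.75% of all windows held it. The E-box CAGCTG was found once, in Glul, 85 bases before the start, which 13.0% of windows held. No letters matching TATAAA (12.4% of windows), the NFI motif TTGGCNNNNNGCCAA (0.0365%), the STAT motif TTCNNNGAA (7.02%) or the SOX motifs ACAAAG (16.5%) and ACAATG (10.7%) were in the 4 windows, which says nothing about binding of those factors elsewhere.

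Over gene bodies all 9 astrocyte markers lay between 0.8 times and 25% above the all-gene median for both antibodies, but not all lay in the middle of the genes. Aldh1l1, Clu, Glul and Gja1 had KAT7 and H3K14ac intervals wholly below the all-gene medians, with KAT7 percentiles of 4.72 to 8.58. Without the bases it shares with another gene, Aldh1l1 lay at KAT7 percentile 9.37. S100b, Slc1a2 and Aqp4 had H3K14ac intervals wholly above the median, with percentiles of 84.5 to 89.2. The share of all gene bodies with such intervals was not computed. It depends on each body's reads, so whether these numbers of members are unusual cannot be told. KAT7 ran from 0.331 to 0.417 RPKM among the members, with a median of 0.388, against a median of 0.399 over 15774 gene bodies. H3K14ac ran from 0.328 to 0.432 RPKM, with a median of 0.349, against 0.381 over all gene bodies. None of 9 was 25% or more above the all-gene median for KAT7, as 4.91% of all gene bodies were, and none lay at or below 0.8 times it, where 3.02% of all gene bodies lay. For H3K14ac none of 9 was 25% or more above the median and none lay at or below 0.8 times, against 5.07% and 3.79% of all gene bodies. With 9 genes, counts of 0 are near what those shares give. In bulk cells, a level carried by few cells and a low level carried by all of them cannot be told apart.

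**Figure D1:**
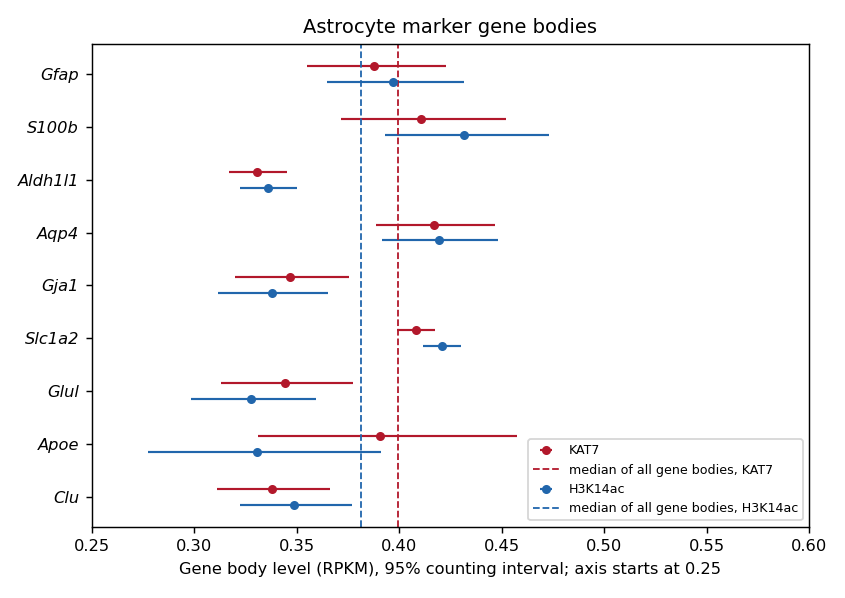
Levels of KAT7 and H3K14ac (RPKM, horizontal axis) over the 9 gene bodies; points are the merged values, lines their 95% counting intervals and dashed lines the medians of 15774 gene bodies. Aldh1l1, Gja1, Glul, Apoe and Clu lie to the left of each antibody's own median, Aqp4, S100b and Slc1a2 to the right of it, and Gfap to the left for KAT7 and to the right for H3K14ac.

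Gfap (gene 14580, chromosome 11, 102887336 to 102897200, minus strand) encodes the intermediate filament of astrocytes. Its gene body had 0.388 RPKM of KAT7 (0.355 to 0.423) from 513 reads and 0.397 RPKM of H3K14ac (0.365 to 0.431) from 555 reads. S100b (gene 20203, chromosome 10, 76253836 to 76261319, plus strand) encodes a calcium-binding protein. Its KAT7 level was 0.411 (0.372 to 0.452) and its H3K14ac level 0.432 (0.393 to 0.473), the highest H3K14ac level of the 9. Its H3K14ac percentile among all gene bodies was 89.2 and its KAT7 percentile was 62.2. Aldh1l1 (gene 107747, chromosome 6, 90550848 to 90599171, plus strand) encodes a folate enzyme used to label astrocytes across the brain. It had the lowest KAT7 level of the 9, 0.331 (0.317 to 0.345), at percentile 4.72, with 0.336 (0.323 to 0.350) for H3K14ac, at percentile 13.0. Its last 2487 bases also lie in an unnamed gene on the other strand, where the table appears to count no reads, since rows nested in another of their class hold 0. Dividing by the length without those bases gave 0.349 (0.334 to 0.364) for KAT7 and 0.354 (0.340 to 0.369) for H3K14ac, at percentiles 9.37 and 24.1, and Clu then had the lowest KAT7 level.

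Aqp4 (gene 11829, chromosome 18, 15389394 to 15403684, minus strand) encodes the water channel of astrocyte endfeet. Its body had 0.417 RPKM of KAT7 (0.389 to 0.447), the highest of the 9, and 0.419 RPKM of H3K14ac (0.391 to 0.448). The RefSeq entry of Aqp4 begins 7298 bases further upstream than the table's TSS, so any start there lies outside the gene body measured. The same holds for Apoe, whose outermost RefSeq start lies 2144 bases upstream, and for Slc1a2, with 444 bases. For the remaining members the distance was at most 80 bases. Gja1 (gene 14609, chromosome 10, 56377300 to 56390419, plus strand) encodes connexin 43, the main gap junction protein of astrocytes and also of radial glia. KAT7 over Gja1 was 0.347 (0.320 to 0.375) and H3K14ac 0.338 (0.312 to 0.365), percentiles 8.58 and 13.8 of all gene bodies. The channel and junction genes therefore stood apart, with both intervals of Gja1 below both of Aqp4.

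Glutamate handling was split in the same way. Slc1a2 (gene 20511, chromosome 2, 102658683 to 102790784, plus strand), which encodes the glutamate transporter GLT-1, is the longest member and has the most reads, 7230 for KAT7 and 7882 for H3K14ac. Its body had 0.408 RPKM of KAT7 (0.399 to 0.418) and 0.421 RPKM of H3K14ac (0.412 to 0.430). Glul (gene 14645, chromosome 1, 153899945 to 153909714, plus strand) encodes glutamine synthetase, which turns the glutamate taken up into glutamine. KAT7 over Glul was 0.344 (0.313 to 0.378) and H3K14ac 0.328 (0.298 to 0.359), the lowest H3K14ac level of the 9, at percentiles 7.72 and 9.49. Both columns were lower at Glul than at Slc1a2, with intervals that did not overlap.

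The genes of secreted lipid carriers lay below the all-gene medians, Apoe with intervals that include the KAT7 and H3K14ac medians. Apoe (gene 11816, chromosome 7, 19696244 to 19699166, minus strand) encodes the main apolipoprotein of the brain. It is the shortest member, with 153 KAT7 and 137 H3K14ac reads, and had 0.390 RPKM of KAT7 (0.331 to 0.457) and 0.331 RPKM of H3K14ac (0.278 to 0.391). Clu (gene 12759, chromosome 14, 65968483 to 65981545, plus strand) encodes clusterin, a secreted chaperone carried on lipoproteins. KAT7 over Clu was 0.338 (0.311 to 0.366) and H3K14ac 0.349 (0.323 to 0.377). Clu stood at percentile 6.03 for KAT7 and 20.3 for H3K14ac.

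With Aldh1l1 taken at its length without the shared bases, the bodies ran by KAT7 as Aqp4, S100b, Slc1a2, Apoe, Gfap, Aldh1l1, Gja1, Glul and Clu. The step between Gfap and Aldh1l1, 1.11 (1.01 to 1.22), was the one step between neighbours whose interval left out 1, and Aqp4 was 1.23 (1.11 to 1.37) times Clu. At the whole length Aldh1l1 came last and no neighbours differed beyond counting error. By H3K14ac they ran S100b, Slc1a2, Aqp4, Gfap, Aldh1l1, Clu, Gja1, Apoe and Glul. There too the step between Gfap and Aldh1l1, 1.12 (1.02 to 1.23), was the one whose interval left out 1, and S100b was 1.32 (1.15 to 1.5) times Glul. Bodies of up to 5 kb had higher medians, 0.424 for KAT7 and 0.405 for H3K14ac, and among longer ones the H3K14ac median was 0.368 at 5 to 10 kb and 0.396 above 100 kb, so each body was also set beside bodies in its own band of length. KAT7 was below the median of its band at 6 of 9 and H3K14ac at 5 of 9. At Slc1a2, among 1584 bodies over 100 kb, H3K14ac lay at percentile 94.5, and at Aqp4, among 3000 bodies of 10 to 20 kb, at percentile 92.05. At Aldh1l1, among 3823 bodies of 20 to 50 kb, KAT7 without the shared bases lay at percentile 7.79.

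With columns scaled to their read totals, the interval of the KAT7 to H3K14ac ratio included 1 at all 9 gene bodies, whereas it lay wholly above 1 in 34.2% and wholly below 1 in 9.06% of all gene bodies, shares that depend on each body's reads. Whether it includes 1 turned on the scaling at Slc1a2 and Aldh1l1. With columns scaled to the gene body medians, 2 of 9 lay wholly below 1, Slc1a2 at 0.926 (0.897 to 0.956) and Aldh1l1 at 0.940 (0.886 to 0.997), where 21.6% of all gene bodies did, and none wholly above, where 18.8% did. With columns scaled to the summed counts of gene bodies, Slc1a2 alone did, at 0.95 (0.920 to 0.981), against 14.4% of all gene bodies below and 26.9% above. Both scalings take gene bodies of all lengths together. At the read totals the ratio ran from 0.951 (0.830 to 1.09) at S100b to 1.18 (0.931 to 1.5) at Apoe, with a median of 0.984 over the 9, against a median of 1.05 over all gene bodies. The narrowest interval was that of Slc1a2, 0.969 (0.939 to 1.00), which lies wholly below the all-gene median. Gfap had 0.977 (0.865 to 1.10), Aldh1l1 0.984 (0.928 to 1.04), Aqp4 0.995 (0.902 to 1.10), Clu 0.968 (0.865 to 1.08), Gja1 1.03 (0.917 to 1.15) and Glul 1.05 (0.920 to 1.2). In none of 9 was KAT7 at least 25% above H3K14ac, as it was in 7.53% of all gene bodies, and in none was the ratio at or below 0.8, where 2.22% were. Glul and Apoe were above the all-gene median of the ratio, and the other 7 were below it. Within bands of length Apoe alone was above the median, at percentile 73.0, and Glul lay at percentile 43.3.

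At the start sites of Glul and Slc1a2 the antibodies had opposite orders, each within counting error at the read totals. The Glul island (153899777 to 153901066) had 0.451 RPKM of KAT7 (0.357 to 0.563) and 0.575 RPKM of H3K14ac (0.470 to 0.696). It takes in the last 152 of the 250 bases shown for Glul and lies mostly downstream of the start. H3K14ac over the island was 1.75 (1.40 to 2.17) times its level over the Glul body, against 1.31 (1.02 to 1.67) times for KAT7. Most of this island lies in the Glul body, as most of the Slc1a2 island does in its own. The intervals of such factors do not allow for the shared bases, and the share of all genes with such factors was not computed. The Slc1a2 island (102658650 to 102659347) had KAT7 at 0.471 (0.342 to 0.632) and H3K14ac at 0.385 (0.272 to 0.528), and neither differed from the Slc1a2 body beyond counting error. The ratios of KAT7 to H3K14ac were 0.785 (0.578 to 1.06) at Glul and 1.22 (0.775 to 1.94) at Slc1a2, and both intervals include 1. Of all islands holding a TSS, 14.7% had an interval wholly above 1 and 8.17% one wholly below it. With columns scaled to the island medians, the interval of Glul, 0.738 (0.543 to 0.999), lay just below 1. The share of all islands wholly below 1 at that scaling was not computed. Glul was thus 1 of 2 islands at or below 0.8, where 21% of 8896 islands holding a TSS lay, and at none of 2 was KAT7 at least 25% above H3K14ac, as at 33% of islands. Islands without the TSS also lie in the bodies of Gfap, Glul and Apoe. The one in Gfap, 3631 to 4002 bases downstream of the TSS, had KAT7 at 0.563 (0.374 to 0.813) and H3K14ac at 0.685 (0.480 to 0.948).

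In the windows of 2001 bases that end at the TSS, available for the 6 plus-strand members, S100b and Aldh1l1 differed in opposite directions. The S100b window (76251836 to 76253836) had 98 KAT7 reads and 147 H3K14ac reads, or 0.365 RPKM (0.297 to 0.445) of KAT7 and 0.519 RPKM (0.438 to 0.610) of H3K14ac. Its ratio of 0.705 (0.540 to 0.916) lay at percentile 1.13 of 9579 plus-strand windows, and its H3K14ac at percentile 96.1. No Enh, IS or island row overlaps this window or the S100b body, and the sequence shown above for S100b is CpG-poor. The Aldh1l1 window (90548848 to 90550848) had 137 KAT7 and 100 H3K14ac reads, or 0.511 RPKM (0.429 to 0.604) of KAT7 and 0.353 RPKM (0.287 to 0.429) of H3K14ac. Its ratio was 1.45 (1.11 to 1.89), and KAT7 there was 1.54 (1.29 to 1.84) times its level over the Aldh1l1 body. That body level is the one at the whole length, 0.331. At 0.349, the level without the shared bases, the factor would be lower. The share of all genes with such a factor was not computed. Gja1 had 1.28 (0.951 to 1.72), Glul 1.18 (0.874 to 1.58), Clu 1.08 (0.798 to 1.46) and Slc1a2 0.978 (0.748 to 1.28), all with 1 inside the interval. In all, KAT7 was at least 25% above H3K14ac in 2 of 6 windows, and in 21.5% of all plus-strand windows, and 1 of 6 was at or below 0.8, where 5.13% were. The interval lay wholly above 1 in 1 of 6, and in 14.2% of all windows, and wholly below 1 in 1 of 6, and in 3.04% of them.

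In windows after the transcription end site (TES), 1 of 6 was at or below 0.8, where 5.78% of 8807 plus-strand windows were, and in none was KAT7 at least 25% above H3K14ac, as in 17% of them. That window was the one of Aldh1l1 (90599171 to 90601171), with 0.377 RPKM (0.307 to 0.458) of KAT7 and 0.497 RPKM (0.419 to 0.587) of H3K14ac and a ratio of 0.757 (0.580 to 0.984). Its interval was the one of 6 that left out 1, as 3.18% of all windows did below 1 and 10.8% above. The S100b window, kept among the 6, shares bases with another of its class, and such windows were left out of the 8807. At Aldh1l1 KAT7 was thus over H3K14ac in the window before the TSS and under it in the window after the TES. The body ratio lay between them. The window after the TES also holds the start, at 90599948, of the unnamed gene on the other strand. It lies inside a domain of the class H3K9me3 domains 1 as well. Farther upstream of the Aldh1l1 TSS, an Enh element 8570 to 10810 bases away had H3K14ac over KAT7, with a ratio of 0.560 (0.453 to 0.690). Intervals are for single windows and were not adjusted for the number of windows compared. Set against the gene body, KAT7 was higher after Slc1a2, 0.544 (0.460 to 0.640) or 1.33 (1.12 to 1.57) times, and after Glul, 0.462 (0.385 to 0.551) or 1.34 (1.09 to 1.64) times, and H3K14ac was higher after Aldh1l1, 1.48 (1.24 to 1.75) times. The Aldh1l1 body is again taken at its whole length, and without the shared bases this factor would be lower. The share of all genes with such factors after the TES was not computed, so whether these are unusual cannot be told. Medians of all these windows were also above those of gene bodies, 0.410 against 0.399 for KAT7 and 0.388 against 0.381 for H3K14ac.

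**Figure D2:**
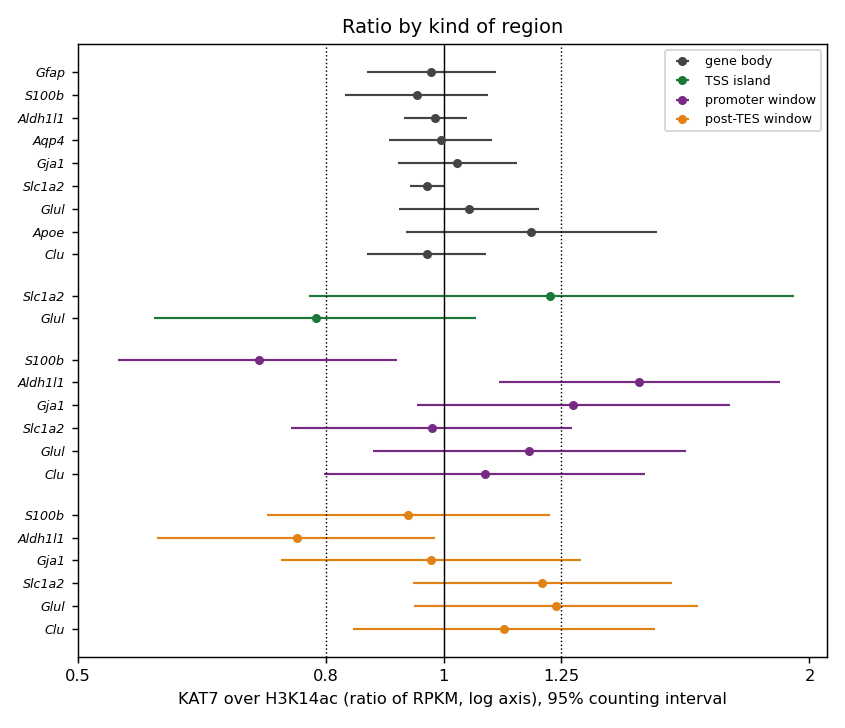
Ratio of KAT7 to H3K14ac (log axis) at gene bodies, islands holding the TSS, windows ending at the TSS and windows after the TES of the members; lines are 95% counting intervals, the solid line is 1 and the dotted lines mark 20% below and 25% above 1. At the read totals the 9 gene bodies all span 1, although Slc1a2 lies wholly below 1 under both other scalings and Aldh1l1 under one of them, and among the windows S100b (0.705), Aldh1l1 before the TSS (1.45) and Aldh1l1 after the TES (0.757) do not.

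The 32 Enh and IS elements were spread over 8 members. Slc1a2 had 12, Gfap 5, Aldh1l1 and Clu 4 each, Glul 3, Apoe 2, and Aqp4 and Gja1 1 each. S100b had none, as did 24.5% of 2254 genes in its band of length, where the median was 2. Elements hold between 2 and 143 reads per column, and several share reads, since IS elements of Slc1a2, Glul and Clu lie inside or across Enh elements of the same gene and the islands of Glul and Slc1a2 lie inside Enh elements. Of 32 elements, 8 had a ratio of at least 1.5, a share of 25%, against 20.9% of 98004 elements in all. At 4 of 32, or 12.5%, it was at or below 0.67, against 15.7%. The interval of the ratio included 1 at all 32, under each of 4 scalings, whereas it lay wholly above 1 at 6.33% and wholly below 1 at 4.23% of all elements, so at this depth no element of these genes showed a difference between the antibodies.

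**Figure D3:**
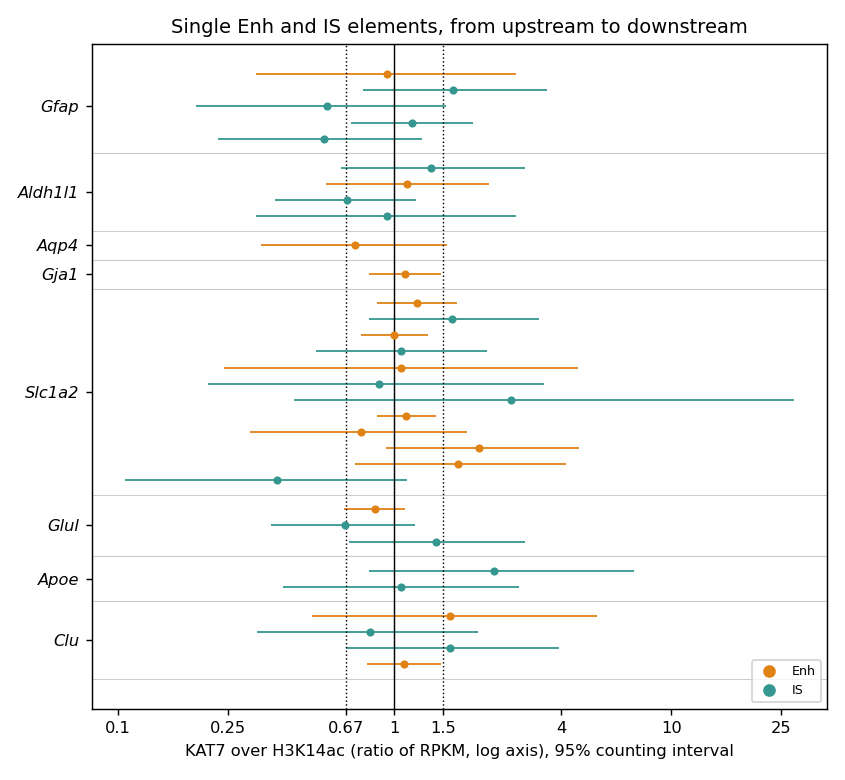
Ratio of KAT7 to H3K14ac (log axis) in each of the 32 Enh and IS elements, by gene and ordered within a gene from upstream to downstream; lines are 95% counting intervals, the solid line is 1 and the dotted lines are 0.67 and 1.5. Every interval spans 1, and the shortest elements have the widest intervals.

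The elements with most KAT7 or H3K14ac, by lower interval bound, were IS elements at each member that had one. Levels are higher in short elements of this table, with all-element KAT7 medians of 0.648 in 1 to 100 bases and 0.436 in 1201 to 2500. The elements set side by side here differ in length, and the part of length in these orders was not tested. At Glul it was the same element for both antibodies, 902 to 996 bases downstream of the TSS, with 1.59 RPKM (0.969 to 2.45) of KAT7 and 1.13 RPKM (0.630 to 1.86) of H3K14ac. KAT7 there was at percentile 97.2 of elements of up to 100 bases. The next one towards the TSS, 373 to 624 bases downstream, had 0.594 (0.363 to 0.918) and 0.900 (0.615 to 1.27). At Slc1a2 the most KAT7 was in the element 201 to 328 bases upstream of the TSS, 1.35 (0.856 to 2.03) against 0.833 (0.466 to 1.37) of H3K14ac, whereas 100 to 338 bases downstream both were lower, 0.564 (0.334 to 0.891) and 0.534 (0.316 to 0.843). Most H3K14ac at Slc1a2 was far inside the gene, 96944 to 97047 bases downstream, with 0.959 (0.524 to 1.61) against 0.362 (0.118 to 0.845) of KAT7, a ratio of 0.377 (0.106 to 1.11). At Clu the same element led for both, 500 to 617 bases downstream of the TSS, with 0.956 (0.535 to 1.58) of KAT7 and 0.603 (0.289 to 1.11) of H3K14ac. The element nearer the Clu TSS, 48 to 248 bases downstream, had 0.373 (0.179 to 0.686) and 0.459 (0.244 to 0.784).

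Gfap had 3 elements upstream of its start, between 805 and 1370 bases from the TSS, and none within the sequence shown above. The middle one, 986 to 1115 bases upstream, had 1.16 RPKM (0.706 to 1.79) of KAT7, percentile 95.7 of elements of its band of length, and 0.711 RPKM (0.379 to 1.22) of H3K14ac. The neighbour nearest the TSS, 805 to 926 bases upstream, had the opposite order, 0.431 (0.173 to 0.889) and 0.758 (0.404 to 1.30), and the farthest had 0.398 (0.172 to 0.784) and 0.423 (0.194 to 0.804). Most H3K14ac at Gfap was near its 3′ end, 8370 to 8494 bases downstream, with 0.601 (0.288 to 1.11) of KAT7 and 1.08 (0.651 to 1.69) of H3K14ac. At Aldh1l1 most KAT7 was 8432 to 8532 bases downstream of the TSS, 1.34 (0.795 to 2.12) against 0.988 (0.540 to 1.66) of H3K14ac. Most H3K14ac lay 23420 to 23617 bases downstream, 1.18 (0.814 to 1.66) against 0.795 (0.492 to 1.22) of KAT7. At Apoe the element 1158 to 1257 bases downstream had 0.979 (0.521 to 1.67) of KAT7 and 0.428 (0.157 to 0.931) of H3K14ac, a ratio of 2.29 (0.812 to 7.35), and the other Apoe element, 2132 to 2307 bases downstream, had 0.426 (0.204 to 0.784) and 0.403 (0.193 to 0.741). Aqp4 had a single element, 12614 to 12764 bases downstream of its TSS, with 0.646 (0.344 to 1.11) and 0.894 (0.538 to 1.40), and the single element of Gja1, 471 to 1965 bases downstream, had 0.474 (0.384 to 0.580) and 0.434 (0.350 to 0.533).

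The elements of each gene were also summed, keeping the longest of those that share bases so that no base counts more than once, and set against the gene body. Elements inside a body share bases with it, which the intervals of these factors do not allow for. At Gfap, over 975 bases, KAT7 was 0.615 RPKM, 1.59 (1.24 to 2.01) times the body, and H3K14ac 0.626 RPKM, 1.58 (1.24 to 1.98) times. At Aldh1l1, over 881 bases, KAT7 was 0.570 RPKM, 1.72 (1.33 to 2.20) times, and H3K14ac 0.603 RPKM, 1.80 (1.41 to 2.26) times. Both factors take the Aldh1l1 body at its whole length and would be lower without the bases shared with another gene. At Gja1, over 1495 bases, the factors were 1.37 (1.09 to 1.70) and 1.29 (1.02 to 1.6). The antibodies differed in whether the interval left out 1 at Slc1a2, over 6157 bases, with KAT7 at 1.14 (1.03 to 1.27) and H3K14ac at 1.01 (0.904 to 1.12). At Glul, where the sum is the single Enh element of 2097 bases, KAT7 was at 1.19 (0.960 to 1.46) and H3K14ac at 1.47 (1.21 to 1.78), and at Aqp4, over 151 bases, at 1.55 (0.822 to 2.67) and 2.13 (1.28 to 3.35). Whether the factors of the antibodies differ was not tested, and the share of all genes with such factors was not computed. Apoe, over 276 bases, and Clu, over 2184 bases, included 1 for both antibodies. The RPKM of short regions is raised in this table, with all-element medians for KAT7 of 0.597 in 101 to 160 bases and 0.436 in 1201 to 2500 bases, and the part of this in the factors was not tested.

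Against other gene lists, chosen with earlier results of these data known, the 8 astrocyte markers whose bodies share no bases with another gene had a median ratio of 0.986. Of the other astroglial genes, 23 of 25 were measured, with a median of 1.02, and 1 of 23 had KAT7 at least 25% above H3K14ac, against 7.53% of all gene bodies. That gene was Cst3, which encodes the protease inhibitor cystatin C, with 1.32 (1.06 to 1.65), next to Mlc1, a membrane protein of astrocyte endfeet, with 1.14 (1.05 to 1.23). Slc6a11, a GABA transporter gene of astrocytes, had 0.942 (0.911 to 0.974), and Kcnj10, the potassium channel gene Kir4.1, had 0.949 (0.889 to 1.01). Regulators of astrocyte genes had a median of 1.09 in 12 of 18 measured, with 11 above the all-gene median of 1.05, and 3 of 12 were past that 25%, against 7.53% of all gene bodies. Among them were Cebpb, a transcription factor gene, with 1.68 (1.14 to 2.51), and the Notch effector gene Hes5, with 1.57 (1.17 to 2.10). The 6 regulators left out share bases with another gene. Of these, Nfia had 1.03 (1.01 to 1.04), Zbtb20 1.02 (1.00 to 1.04) and Jak1 1.00 (0.969 to 1.04), below the all-gene median. Above it lay Nfib with 1.07 (1.05 to 1.10), Nfix with 1.12 (1.08 to 1.17) and Notch1 with 1.10 (1.05 to 1.17). Among the 12 measured, the lowest upper bounds were those of Rbpj, which encodes the DNA-binding partner of Notch, with 1.05 (1.01 to 1.10), and Smad1, a mediator of BMP signals, with 1.06 (1.01 to 1.11).

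Radial glia genes had a median of 1.10 in 9 of 13 measured, and 4 of 9 were past 25%, against 7.53% of all gene bodies. The highest lower bounds were those of the cortical factor gene Emx2 with 1.41 (1.24 to 1.6) and of Msi1, which encodes the RNA-binding protein Musashi-1, with 1.29 (1.19 to 1.40). At the other end Prom1, which encodes the membrane protein CD133, had 0.953 (0.918 to 0.989). Oligodendrocyte lineage genes had a median of 1.01 in 10 of 12 measured, with Olig2 at 1.62 (1.41 to 1.85) and the myelin gene Mbp at 0.917 (0.884 to 0.951). Neuronal genes had a median of 0.988 in 8 of 13 found, with the neurofilament gene Nefl at 1.35 (1.09 to 1.68) and Rbfox3, the NeuN gene, at 0.953 (0.934 to 0.972). A CpG island held the TSS of 2 of 9 astrocyte markers, 9 of 25 other astroglial genes (36%), 13 of 18 regulators (72.2%), 8 of 13 radial glia genes (61.5%), 6 of 12 oligodendrocyte lineage genes (50%) and 8 of 13 neuronal genes (61.5%). These island shares are over all genes found, whereas the median ratios are over the measured genes alone. Marked Top in expression were 7 other astroglial, 5 radial glia, 2 oligodendrocyte lineage and 2 neuronal genes, and no regulator or astrocyte marker. These counts are not set against the share of all genes marked Top, which was not computed. The part of islands and of expression in the ratios was not tested, and no test of the differences between lists was made.

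**Figure D4:**
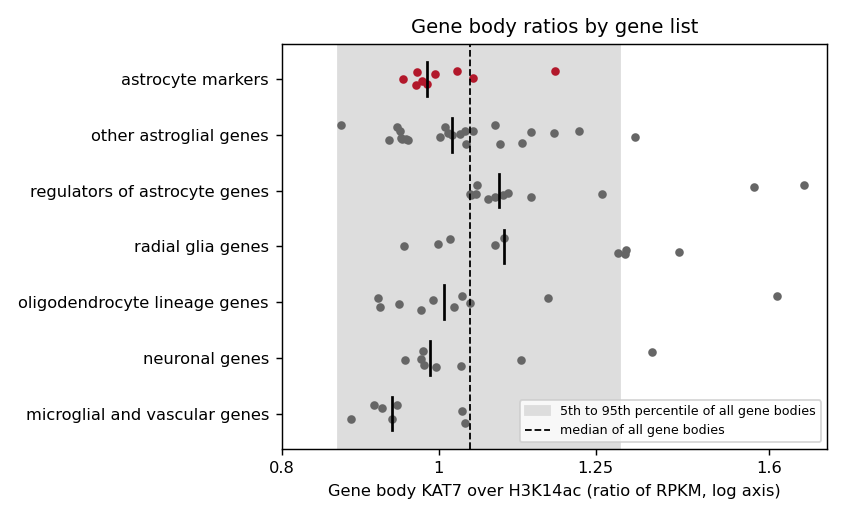
KAT7 to H3K14ac ratio over gene bodies (log axis) by list, 1 point a gene, with the list's median as a black bar; the dashed line is the median and the grey band the 5th to 95th percentile of 15774 gene bodies (0.867 to 1.29). All 9 astrocyte markers lie inside the band, and regulators, radial glia genes, Cst3 of the other astroglial genes, Olig2 and Nefl have points to its right.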

How the data were processed

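The authors deposited 1 table of genomic regions with whole-number read counts and RPKM values, in 1 merged column for each antibody. The submitters' processing notes name build mm10 and featureCounts, deepTools, Picard, SAMtools and Bowtie2. Their versions and roles, and the meaning of SC and gc in the column names, are not given in these sources, so whether the counts were corrected is not known. Dividing each deposited count by the region's length less 1 base and by a single read total per column returned the authors' RPKM at 100% of non-empty regions (relative tolerance 1e-06).

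From the deposited counts, levels got exact Poisson intervals and ratios exact binomial (Clopper-Pearson) 95% intervals, in Python 3.11.15 with SciPy 1.17.1. Coverage of the ratio intervals was tested on simulated independent Poisson counts. The intervals assume such counts, so that test does not bear on merged libraries or on reads that are not independent. No p-value was computed. The background left out chromosomes X, Y and M, regions above 5 RPKM, regions sharing bases with another of their class (Aldh1l1 among them) and regions with a mean below 0.1 RPKM, leaving 15774 of 20689 gene bodies. Ratios at least 25% above 1 or at most 0.8 were counted, and past 1.5 or 0.67 for elements. Bands of length for gene bodies were cut at 5, 10, 20, 50 and 100 kb. The windows before the TSS and after the TES were added after the values were seen; minus-strand windows have a negative length and were not used. The members, lists and named-gene rule (all members; per list the 2 highest lower and 2 lowest upper bounds of the ratio, of which the text gives some) were chosen with earlier results of these data known. Gene symbols and promoter sequences are from RefSeq, GRCm38.p6. A promoter entry within 20 bases of the table's TSS was found for 4 members, in a search that left out Aqp4. Exon and intron limits were not used here. The planned comparison of genotypes needs values per library and was not run.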

Additional observations from a re-analysis of the deposited data

How the results depend on the processing

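Of the recomputed counts and island ratios that answer a comparison, 26 moved by less than 1.5 times (counts) or stayed within their counting interval (ratios), whether columns were scaled to class medians or summed counts, low or overlapping regions were kept, bodies were set against their length band, or islands up to 1 kb from the TSS were taken. The other 3 are numbers of regions whose ratio interval leaves out 1. For the 9 gene bodies it was 0 at the read totals, 2 with columns scaled to the gene body medians (Slc1a2 and Aldh1l1) and 1 with columns scaled to their summed counts (Slc1a2), and for the 2 islands it was 0 and, scaled to the island medians, 1 (Glul). Of the ratios of single regions and summed elements and the Aldh1l1 levels, 66 stayed within their counting interval and 4 did not. Scaling to the gene body medians put Slc1a2 at 0.926, with an interval wholly below 1. Taking 10 kb upstream in place of 5 kb put the summed elements of Aldh1l1 at 0.628 in place of 0.944, through an Enh element 8570 to 10810 bases upstream with 0.469 RPKM of KAT7 and 0.838 RPKM of H3K14ac, a ratio of 0.560 (0.453 to 0.690), and an IS element inside it. The Aldh1l1 body levels without shared bases, 0.349 for KAT7 and 0.354 for H3K14ac, are the others. The alternatives on windows, on Aldh1l1 levels and their order, on elements that share bases and on the scaling of intervals other than those of gene bodies and, by island medians, of islands were chosen after seeing the data. No paired analysis was possible because the deposited columns merge the libraries. Leaving out replicates and the other pseudocount were planned for the comparison of genotypes and were not run with it. Depth limits single elements most, with 2 to 143 reads per column.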

Other observations

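Markers of other cells of the brain lay below the all-gene median of 1.05 in the gene body ratio. Of 8 microglial and vascular genes 7 were measured, with a median KAT7 to H3K14ac ratio of 0.935 and a highest value of 1.04, and none had a CpG island at the TSS. Csf1r, which encodes the growth factor receptor of microglia, had 0.912 (0.844 to 0.985), with 0.356 RPKM of KAT7 and 0.390 RPKM of H3K14ac, and the endothelial adhesion gene Pecam1 had 0.923 (0.879 to 0.969), with 0.372 and 0.403 RPKM. Pdgfrb, a pericyte receptor gene, had 0.943 (0.884 to 1.01). The fractalkine receptor gene Cx3cr1 had 1.03 (0.946 to 1.13). The table marks 3 of the 8 as Bottom and 5 as Other in expression.

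The class that the table calls Pseudogenes overlaps most annotated genes. All 9 astrocyte marker bodies overlap at least 1 of its rows, as do 92.6% of 19903 autosomal gene bodies, and rows of this class cover 100% of the Gja1 and Aldh1l1 bodies and 99.5% of the S100b body. Over S100b that row had 0.403 RPKM of KAT7 and 0.437 RPKM of H3K14ac. Domains of the class H3K9me3 domains 1 overlap 19.6% of the Aldh1l1 body and 4.24% of the Glul body, and a domain of set 2 overlaps 9.08% of Slc1a2.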
